A study of Mus musculus with 282 samples.

Results

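The genes described here are 9 lymphoid and multipotent progenitor priming genes, Flt3, Il7r, Notch1, Satb1, Mef2c, Ebf1, Dntt, Vpreb1 and Cd79b, out of 49671 Ensembl genes in the count table. They were taken by symbol, and each symbol matched 1 identifier. They were measured in single hematopoietic stem cells (HSCs) of mouse bone marrow, 1 per well. The sort gate was LSK CD48-/lo CD150+, and LSK cells lack lineage markers and carry Sca-1 and Kit. All animals were homozygous at 2 altered loci (Rosa26 rtTA/rtTA, a doxycycline-dependent transactivator, and Col1a1 H2B-GFP/H2B-GFP, a histone H2B fused to a green fluorescent protein), and none had received doxycycline. The description gives 6 mice of 12 to 22 weeks and 2 experiments. There was thus 1 untreated group and no treatment contrast.

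Lymphoid priming is the low-level transcription of lymphoid genes in cells that still make all blood lineages. In the textbook order, multipotent progenitors gain the cytokine receptor Flt3, then transcribe Dntt and other recombination genes, and common lymphoid progenitors carry the interleukin-7 receptor Il7r. Ebf1 then sets up the B cell program, which includes the pre-B cell receptor gene Vpreb1 and the receptor chain Cd79b, while Notch1 directs T cell fate in the thymus. The sort used here aims at the most primitive end of this order, before Flt3 protein is known to appear at the surface.

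Of 282 wells, 232 passed the filter of 100000 counts and 1000 genes and are called kept cells. Their total counts ran from 116009 to 1680714 (median 280096). The labels name library series 29 or 32 and an HSC code from 2 to 5, which give 6 sets of 22 to 46 kept cells: L29 HSC-3 and L29 HSC-4 in series 29, and codes HSC-2 through HSC-5 with the prefix L32 in series 32. No label ties a cell to an animal, so the 232 cells count as 1 sample and no test was made. Shares carry exact Clopper-Pearson 95% intervals, which cover counting error only, and the SD over the 6 sets, which may be technical. One set, L29 HSC-4, was unlike the others, with fewer genes per cell (median 4151 against 5126 to 5686) and more mitochondrial counts (6.66% against 3.28% to 3.73%). All 25 HSC identity genes of the marker list reached 10 CPM (reads of the gene scaled to an equal total in every cell) in at least 10% of kept cells. So did 2 of 9 dendritic cell genes (Bst2 and Tcf4), 3 of 16 myeloid genes (Lyz2, Prtn3 and Csf3r), 3 of 12 erythroid genes (Car2, Hbb-bt and Hbb-bs), 8 of 13 megakaryocyte genes and 4 of 12 genes of endothelium and stroma. So did 3 of 21 B cell genes (Cd37, Cd79b and Cd72), but not Pax5 or Cd79a (1.29% each), and none of 17 T and NK cell genes. Of all 49671 genes, 19.5% passed the same rule. The counts of the dendritic cell, myeloid, erythroid and B cell lists lay near that share.

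Detection in a cell means 10 CPM or more, or 2.80 reads at the median depth. Of the 9 genes, 4 were detected in at least 10% of kept cells, namely Mef2c, Cd79b, Notch1 and Flt3, beside 19.5% of all 49671 genes. Satb1, Ebf1 and Vpreb1 lay between 3.88% and 5.60%, Dntt was found in 2 cells and Il7r in none. The order of the shares was Mef2c, Cd79b, Notch1, Flt3, Satb1, Ebf1, Vpreb1, Dntt and Il7r. From Notch1 down to Il7r, each neighbour differed by less than the larger of the pair's SDs over sets, except Vpreb1 and Dntt, whose sets overlapped. The sets of Cd79b and Notch1 overlapped too, so the order is loose below Mef2c.

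**Figure D1:**
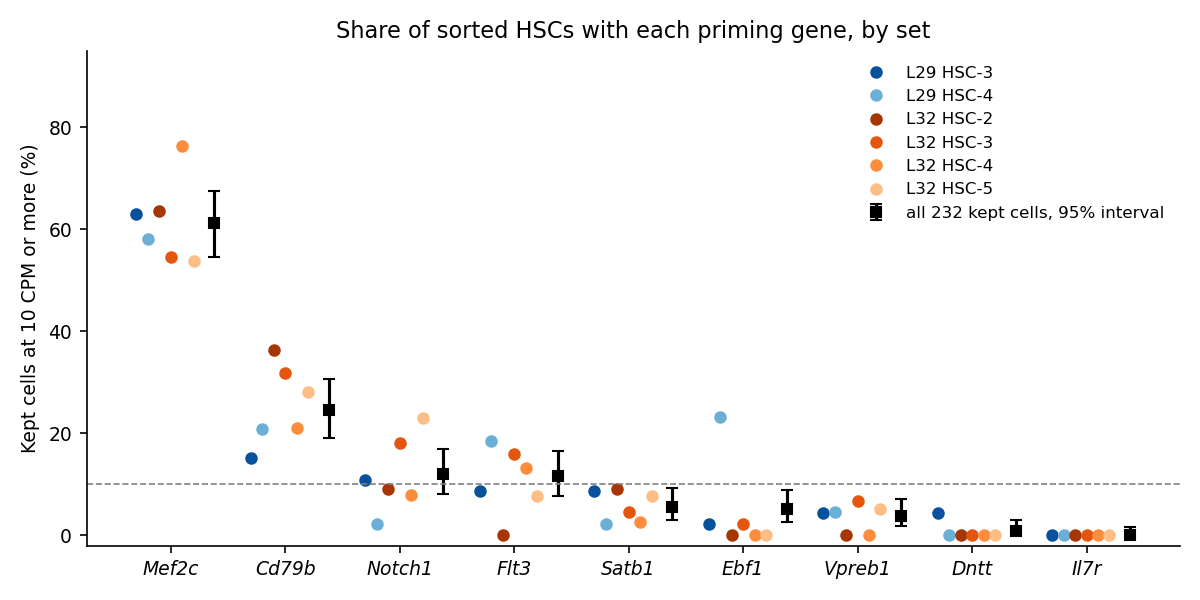
Share of kept cells (%) at 10 CPM or more for each of the 9 genes. Coloured points are the 6 sets, black squares all 232 kept cells with the exact 95% interval, and the dashed line marks 10% of cells. Mef2c lies above 50% in all 6 sets, and the one Ebf1 point above 20% is L29 HSC-4.

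Among the receptors, Flt3 encodes the tyrosine kinase receptor for Flt3 ligand, which acts on multipotent and early lymphoid progenitors (ENSMUSG00000042817, mm10, minus strand, chr5:147330741-147400489). Flt3 reached 10 CPM in 27 of 232 kept cells, or 11.6% (95% interval 7.81% to 16.5%; SD over sets 6.68 points). By set, the share was 8.70% in L29 HSC-3, 18.6% in L29 HSC-4, 0% in L32 HSC-2, 15.9% in L32 HSC-3, 13.2% in L32 HSC-4 and 7.69% in L32 HSC-5. The 22 cells of L32 HSC-2 held no Flt3 read, which allows a share of up to 13.6% by a floor of 3 cells and up to 15.4% by the exact interval, a range that takes in the shares of 3 other sets. Flt3 was high where it was found: the 27 cells ran from 15.3 to 1281 CPM with a median of 268 CPM (70 reads), and 20 of them passed 100 CPM. A further 9 cells had reads under the threshold, and the median over all kept cells was 0 CPM. Cells with and without Flt3 had similar depth, with median totals of 262032 and 285400 counts and medians of 5463 and 5207 genes.

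Il7r encodes the alpha chain of the interleukin-7 receptor, the cytokine receptor of early B and T cell precursors (ENSMUSG00000003882, minus strand, chr15:9506161-9529876). It reached 10 CPM in 0 of 232 kept cells, which allows a share of up to 1.29% by a floor of 3 cells and up to 1.58% by the exact interval. The whole group held 4 Il7r reads, in 3 cells at 9.78, 6.68 and 4.58 CPM. All 3 belonged to library series 29.

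Notch1 encodes the receptor that starts the T cell program (ENSMUSG00000026923, minus strand, chr2:26457903-26516663). Detection was seen in 28 kept cells, 12.1% (8.17% to 17.0%; SD over sets 7.50 points), close in number to Flt3 but at a lower level, with a median of 35.8 CPM (10 reads) and a range from 10.2 to 162 CPM in the cells that had it. Of these, 5 passed 100 CPM. The share was lowest in L29 HSC-4 at 2.33% and highest in L32 HSC-5 at 23.1%. Without L32 HSC-5 it was 9.84%, under the 10% line, and without L29 HSC-4 it was 14.3%. Exons of 2 transcripts on the opposite strand, 0610009E02Rik and Gm13568, overlap Notch1. They held 89 reads in kept cells against 600 for Notch1, and no source used here says whether counting used the strand.

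The promoters of Flt3, the receptor on which the co-detection below turns, and of Il7r, the receptor found in no cell, are shown for context. RefSeq windows of build GRCm38.p6 (the same assembly as mm10) matched 8 of the 9 genes with 15 start sites. The 250 bases before each start were searched on both strands for 4 short motifs, and so were all 32851 windows of this length. The RUNX motif TGTGGT was present in 14.0% of all windows and in 1 window of the 9 genes. For the E-box CAGGTG these numbers were 17.2% and 2 windows, for the GATA motif AGATAA they were 9.99% and 1 window, and for the RBPJ motif TGGGAA they were 21.6% and 2 windows. Neither of the following sequences (5′ to 3′ on the gene's strand, chr5:147400490-147400739 and chr15:9529877-9530126) held a match, so no base is in capitals. The windows of Mef2c and Notch1 held none either.
Flt3 promoter: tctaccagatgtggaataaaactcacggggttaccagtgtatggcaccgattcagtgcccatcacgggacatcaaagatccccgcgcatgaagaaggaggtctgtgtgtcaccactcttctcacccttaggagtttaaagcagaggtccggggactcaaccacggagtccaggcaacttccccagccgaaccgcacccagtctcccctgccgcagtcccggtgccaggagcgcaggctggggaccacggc
Il7r promoter: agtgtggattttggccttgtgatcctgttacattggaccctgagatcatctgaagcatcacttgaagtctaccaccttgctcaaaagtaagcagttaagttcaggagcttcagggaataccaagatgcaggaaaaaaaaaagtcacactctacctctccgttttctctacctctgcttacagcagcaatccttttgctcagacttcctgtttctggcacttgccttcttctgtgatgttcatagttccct

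Among the nuclear factors, Mef2c was the most frequent of the 9 genes. It encodes a MADS-box transcription factor that favours lymphoid over myeloid fate in progenitors and is also known from muscle and brain (ENSMUSG00000005583, plus strand, chr13:83504034-83667080). In all, 142 kept cells had it, 61.2% (54.6% to 67.5%; SD over sets 8.30 points), from 53.8% in L32 HSC-5 to 76.3% in L32 HSC-4. The median over all kept cells was 80.6 CPM, the median of the 142 cells was 271 CPM, and the highest cell had 1712 CPM. The 5 highest cells held 13.2% of its summed CPM, the smallest such share among the 9 genes. Within series 32, Mef2c was detected in 52.2% of 92 cells on plate 1 and in 78.4% of 51 cells on plate 2. Plate 2 was also higher for Cd79b (25.0% against 35.3%), Flt3 (8.70% against 13.7%), Notch1 (14.1% against 17.6%) and Vpreb1 (2.17% against 5.88%). Satb1 was nearly equal (5.43% against 5.88%), and Ebf1 was lower on plate 2 (1.09% against 0%). The part of the plate in these differences was not tested.

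Satb1 encodes a chromatin organiser that multipotent progenitors need to make lymphoid cells (ENSMUSG00000023927, minus strand, chr17:51736187-51833290). Its detection was limited to 13 kept cells (5.60%, 3.02% to 9.39%; SD over sets 3.05 points). Most of its signal came from few cells. The highest, in L29 HSC-4, had 580 CPM from 114 reads and the next, in L29 HSC-3, had 397 CPM from 107 reads, and the 5 highest cells held 79.1% of its summed CPM. The 13 cells lay in all 6 sets, with 1 to 4 per set. Another 39 cells had reads under 10 CPM. Over all cells with a Satb1 read the median was 1 read, in either library series. Exons of Gm36931 on the same strand and Gm6934 on the other overlap Satb1 and held 52 reads against 501.

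Ebf1 encodes the transcription factor that specifies B cells (ENSMUSG00000057098, plus strand, chr11:44617317-45008091). Ebf1 reached 10 CPM in 12 kept cells (5.17%, 2.70% to 8.86%; SD over sets 9.20 points), always at a low level, with a median of 15.9 CPM and at most 7 reads. L29 HSC-4, the set with fewest genes per cell, held 10 of the 12 cells (23.3% of that set against 0% to 2.27% in the others), and without it the share was 1.06%. The 12 cells had a median of 3954 genes and 8.31% mitochondrial counts, against 5245 genes and 3.58% in the other 220. Their median depth was also lower, at 194726 against 286194 counts. In the median cell of L29 HSC-4, 10 CPM was 2.11 reads, against 2.86 in L29 HSC-3. With detection at 5 reads, the share of all kept cells was 0.862%. After thinning to 100000 reads, Ebf1 was present in 44.2% of L29 HSC-4 and 32.6% of L29 HSC-3. The part of depth in the difference between these sets was not tested. Counting any read, the split ran along the library series. An Ebf1 read was present in 53 of 89 cells of series 29 (59.6%, 48.6% to 69.8%) and in 12 of 143 cells of series 32 (8.39%, 4.41% to 14.2%).

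That Ebf1 difference was present in both sets of series 29, at 60.9% of L29 HSC-3 and 58.1% of L29 HSC-4, against 4.55% to 13.6% in the 4 sets of series 32, so the groups of sets did not overlap. It was still there when every cell was thinned to 100000 reads, with 32.6% and 44.2% in series 29 and 0% to 5.13% in series 32. Among 13087 genes with a read in at least 10% of kept cells, 0.199% (26 genes, Ebf1 included) had a ratio of series 29 to 32 at least as high as its 7.10, and the median ratio of all was 0.842. Any read of the other sparse genes was present in series 29 and 32 as follows: for Satb1 in 31.5% against 16.8%, for Dntt in 11.2% against 2.10%, for Vpreb1 in 6.74% against 6.99%, and for Il7r in 3.37%, which is 3 cells, against 0%. At 10 CPM, the frequent genes Notch1 (6.74% against 15.4%) and Cd79b (18.0% against 28.7%) were higher in series 32. Flt3 was at 13.5% against 10.5% and Mef2c at 60.7% against 61.5%. In both series the median cell with a read of Ebf1, Satb1 or Dntt held 1. The 16 genes of the B cell list that are outside the 9 and under 10% of cells summed to 32.7 and 17.9 CPM in the sets of series 29 and to 8.80 to 27.4 CPM in those of series 32. Whether the library series differ in preparation or in animals is not in the labels, and the 2 cannot be told apart.

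**Figure D2:**
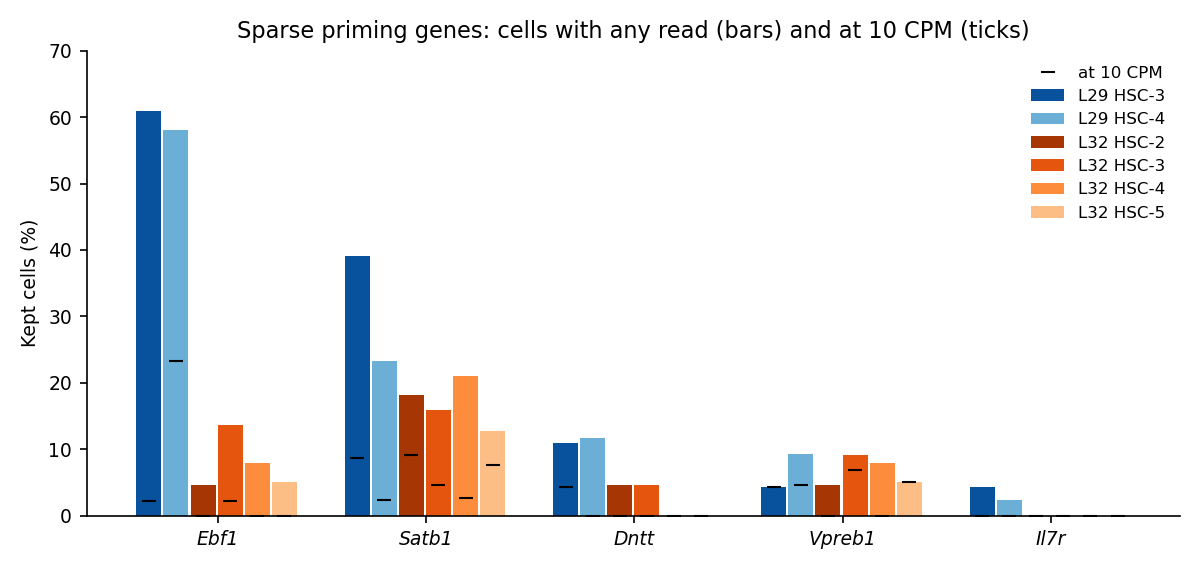
Share of kept cells (%) with at least 1 read (bars) and at 10 CPM (ticks) for the 5 sparse genes in each of the 6 sets. Ebf1 bars are near 60% in both sets of library series 29 and under 14% in the 4 sets of series 32, while the Vpreb1 bars of the 2 series overlap.

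Dntt encodes terminal deoxynucleotidyl transferase, which adds bases at V(D)J junctions and is a classic mark of lymphoid-primed progenitors (ENSMUSG00000025014, plus strand, chr19:41029275-41059523). It reached 10 CPM in 2 of 232 kept cells (0.862%, 0.105% to 3.08%), both in L29 HSC-3, at 16.4 CPM (2 reads) and 10.1 CPM (4 reads). In all, 13 cells held 19 Dntt reads. One of the 2 detected cells was C1 of L29 HSC-3, which had the second-highest number of genes of all kept cells, 11926 genes from 122145 reads.

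Of the pre-B cell receptor genes, Vpreb1 encodes a surrogate light chain component (ENSMUSG00000059305, minus strand, chr16:16868402-16870843). Of the kept cells 9 had it (3.88%, 1.79% to 7.24%; SD over sets 2.84 points). The highest cell, in L29 HSC-4, had 387 CPM from 58 reads, and the next had 95.9, 65.8, 55.4 and 43.2 CPM. The 5 highest cells held 88.7% of its summed CPM, so its mean of 3.14 CPM came down to 1.43 CPM without L29 HSC-4. An exon of Top3b, a DNA topoisomerase gene, overlaps Vpreb1 on the other strand. Top3b held 5082 reads in kept cells against 157 for Vpreb1. Top3b was detected in 63 kept cells, and 2 cells had both, against 2.45 from the product of the shares within sets. Whether Top3b reads entered the Vpreb1 counts was not tested. The RefSeq start of Vpreb1 lies inside the interval of the deposited annotation. Its upstream 250 bases (chr16:16869256-16869505, minus strand, 5′ to 3′) are shown because they hold an E-box, in capitals, whose first base lies 88 bases before the start.
Vpreb1 promoter: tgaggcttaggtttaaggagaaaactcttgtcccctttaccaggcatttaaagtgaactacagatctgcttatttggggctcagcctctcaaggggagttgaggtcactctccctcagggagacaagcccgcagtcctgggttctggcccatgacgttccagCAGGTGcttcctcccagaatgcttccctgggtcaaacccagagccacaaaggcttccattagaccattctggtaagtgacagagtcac

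Cd79b encodes the beta signalling chain of the B cell receptor (ENSMUSG00000040592, minus strand, chr11:106311341-106314762). It reached 10 CPM in 57 kept cells, 24.6% (19.2% to 30.6%; SD over sets 7.89 points), from 15.2% in L29 HSC-3 to 36.4% in L32 HSC-2. Its level in those cells was high, with a median of 199 CPM (48 reads), a range from 10.0 to 2017 CPM and 47 of 57 cells past 100 CPM. The highest cell, in L29 HSC-4, held 305 reads, while the next had 566 CPM. Its partner chain Cd79a was detected in 3 kept cells. Of the 21 genes on the B cell list, 3 reached 10% of cells, beside 19.5% of all 49671 genes. The 3 were Cd79b, the tetraspanin Cd37 (34.1% ± 12.5, SD over sets) and the lectin-type co-receptor Cd72 (19.0% ± 14.9). Vpreb3 had no read in any kept cell.

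**Figure D3:**
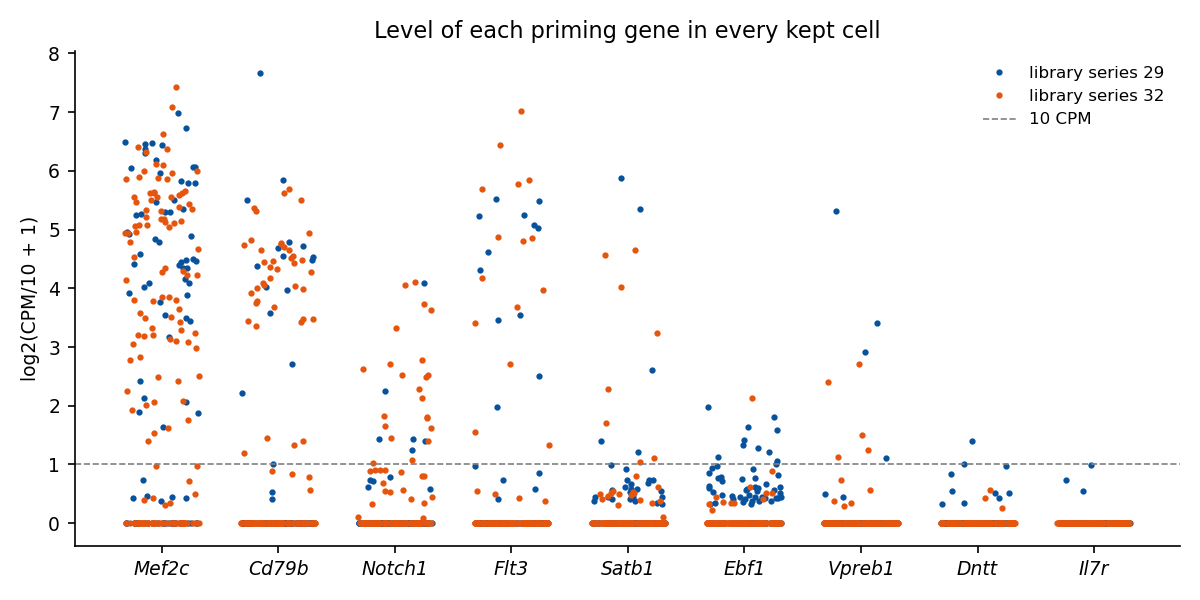
Level of each gene in each of the 232 kept cells, as log2(CPM/10 + 1), with points coloured by library series and a dashed line at 10 CPM. Most Mef2c, Cd79b and Flt3 points above 0 lie over the line, while most Ebf1, Satb1 and Dntt points above 0 lie under it.

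Per kilobase of exon, mean levels over kept cells were 40.3 CPM for Cd79b, 13.2 for Mef2c, 5.74 for Flt3, 2.83 for Vpreb1, 0.478 for Notch1, 0.457 for Satb1, 0.207 for Ebf1, 0.153 for Dntt and 0.0283 for Il7r. The exons of Cd79b cover 1431 bases and those of Mef2c 15715, and without division by length the mean of Cd79b (57.6 CPM) was below that of Mef2c (207 CPM). Notch1 and Satb1 did not differ beyond their spread, with mean levels of 6.81 and 8.70 CPM and SDs over sets of 4.58 and 4.84 CPM. For Vpreb1, Ebf1, Dntt and Il7r the SD over sets was larger than the mean, so their place relative to their neighbours is not fixed by these sets.

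The near relatives of the 9 genes differed widely in the same cells. In the receptor family of Flt3, the stem cell factor receptor Kit, which the gate selects, was detected in 84.5% ± 7.09 of cells (SD over sets), and Csf1r, the receptor of macrophage colony-stimulating factor, in 1.72%. Partners and relatives of Il7r were present without it: its partners, the common gamma chain Il2rg was detected in 54.7% ± 12.0 and the thymic stromal lymphopoietin receptor Crlf2 in 38.4% ± 8.23, and the relative Il4ra, of the interleukin-4 receptor, in 24.1% ± 7.08, while Il2rb was detected in 0 of 232 cells. Of the Notch receptors, Notch2 was more frequent (20.7% ± 6.96) than Notch1, with Notch3 at 7.33% and Notch4 at 0.431%. Mef2d (32.8% ± 12.9) and Mef2a (28.9% ± 4.74) lay below Mef2c, and Mef2b had no read. Of the DNA polymerases related to Dntt, the repair enzymes Polb and Poll were detected in 25.4% and 12.5% of cells and Polm in 1.72%. Ebf2, Ebf3, Ebf4, Vpreb2 and Igll1 each lay at or under 1.29%.

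**Figure D4:**
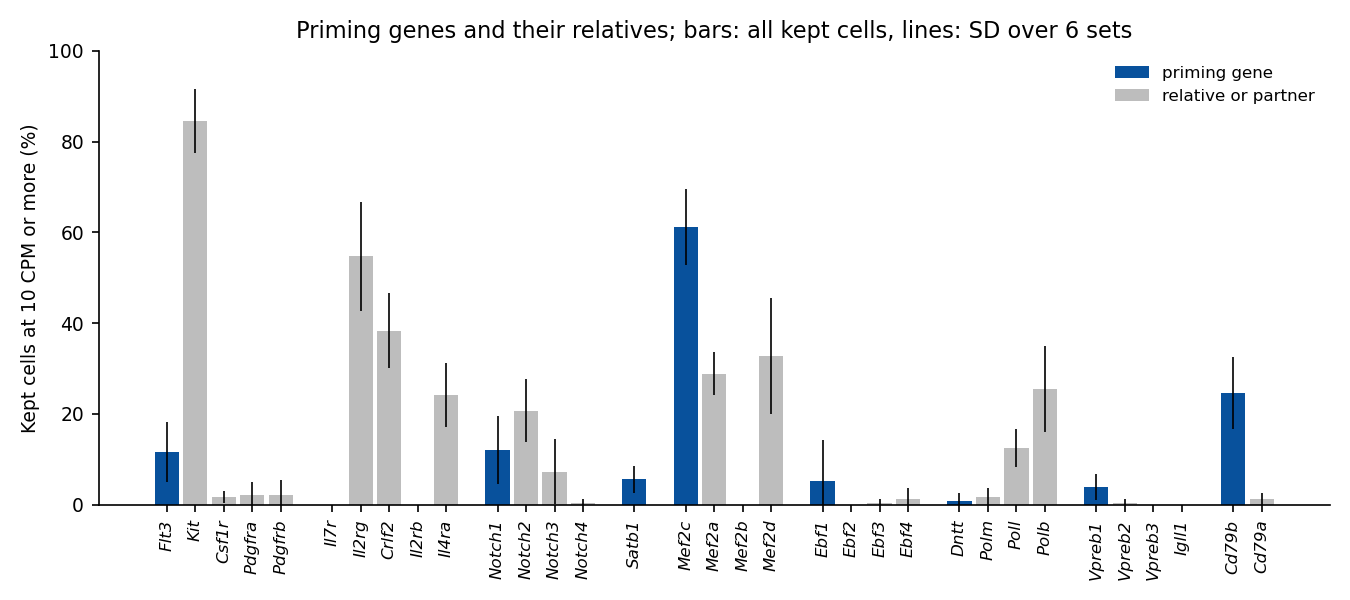
Share of kept cells (%) at 10 CPM or more for the 9 genes (blue) and the relatives or partners (grey) of 8 of them, with lines for the SD over the 6 sets, cut off at 0. Kit is the highest bar at 84.5%, and the bars of Il7r, Il2rb, Mef2b, Ebf2, Vpreb3 and Igll1 are at 0.

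The pathways around the receptors were detected in part. The counts of list genes below stand beside 19.5% of all 49671 genes that reached 10% of kept cells. On the interleukin-7 pathway list, 10 of 13 genes reached 10% of cells, led in mean level by the kinase Jak1 (73.3% ± 16.2, SD over sets) and including Jak3 (46.1% ± 13.7), the transcription factor Stat5a (41.8% ± 6.95), its target and inhibitor Cish (45.3% ± 17.1) and the survival gene Mcl1 (47.4% ± 10.7). On the Notch list 17 of 32 reached it, Notch1 itself among them. Among them were Mfng, a glycosyltransferase that tunes Notch ligand choice (69.8% ± 15.3), Dtx3 (61.2% ± 22.2), the protease Adam10 (46.6% ± 12.3), the ubiquitin ligase Itch (38.4% ± 10.7) and the gamma-secretase gene Ncstn (36.6% ± 12.2). Rbpj, the DNA-binding partner of Notch, was detected in 25.9% of cells, and its co-activators Maml2, Maml1 and Maml3 in 15.1%, 9.48% and 7.33%. Of the Notch target genes, Hes1 was detected in 4.74%, Hey1 and Heyl in 0 of 232 and Dtx1 in 0.431%, and Nrarp had no read. Rbpj, the co-activators and the targets were named after their values were seen.

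On the list of lymphoid transcription factors, 14 of 24 reached 10% of cells, beside 19.5% of all 49671 genes. Bcl11a, needed for lymphoid development, was at 75.4% ± 11.8 (SD over sets), Myb at 67.2% ± 7.46, Tcf4 at 49.6% ± 5.79, Spi1, which encodes PU.1, at 47.4% ± 18.0, Ikzf1, which encodes Ikaros, at 42.7% ± 13.1 and Ikzf2 at 36.2% ± 14.8. Among factors best known from B and T cells, Gata3 was at 42.7% ± 18.4 and Tcf3 at 21.6% ± 5.70, while Lef1 (1.72%), Pax5 (1.29%), Bcl11b (0.431%) and Tcf7 (0 of 232) lay far lower. These 6 were picked once their values were known. Of the 22 multipotent and lymphoid progenitor genes, 11 reached 10%, beside the same 19.5% of all genes. The median share of the list was 10.3%. Its recombinase genes Rag1 and Rag2 were detected in 1 and 0 cells, and the homing receptors Ccr7 and Ccr9 in 0.

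Wells with little mouse RNA served as background. Spike-in reads outnumbered gene reads in 38 wells under the filter, called near-empty, 22 in L32 HSC-2 and 16 in L32 HSC-3, with 616795 gene reads together and a median of 8794. Levels there are CPM of the summed reads, set beside those of the 66 kept cells of the same 2 sets, and 3 reads correspond to 4.86 CPM. Flt3 had no read in the near-empty wells against 32.9 CPM in the kept cells, and Cd79b 3.24 against 64.4 CPM, from 2 reads in the near-empty wells. Over all 50 wells under the filter, of 4 sets, Cd79b stood at 207 CPM (269 reads), above the kept cells. Vpreb1 had no read in the near-empty wells against 1.02 CPM in the kept cells. That kept-cell level is itself under the 4.86 CPM of 3 reads, so these wells cannot place it above background. Notch1 had 3.24 against 8.73 CPM, from 2 reads in the near-empty wells, under the same floor, so this gap rests on few reads.

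The other 5 genes had the higher value in the near-empty wells, beside 42.2% of all genes with a read in either, but Il7r did so on 1 read, under the floor, and Mef2c through 1 well. Ebf1 had 34.0 CPM there, from 21 reads in 8 wells, against 0.574 CPM in the kept cells, and Dntt 14.6 CPM, from 9 reads in 3 wells, against 0.123 CPM. Satb1 had 22.7 against 5.65 CPM. Without the well that held most reads of the gene, the values were 16.5 CPM for Ebf1, 6.55 CPM for Dntt and 13.6 CPM for Satb1, each still above the kept cells. For Mef2c it was 1187 against 196 CPM, but 1 well held 707 of its 732 reads, and without that well the background was 43.3 CPM, below the kept cells. Near-empty wells existed in 2 of the 6 sets, both of series 32, so the background of series 29 was not measured. CPM is a proportion of a well's reads, so these values do not say how much background entered a kept cell.

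Cells carried few of the 9 genes at a time. At 10 CPM, 48 kept cells had none of them, 103 had 1, 59 had 2, 19 had 3, 3 had 4, and no cell had 5. Multiplying the shares within sets gave 43.6, 107, 63.7, 15.8 and 1.92 cells with 0 to 4 genes, so each count lay within 5 cells of the product. The products here and for pairs did not split the plates within a set. At least 2 genes were found in 81 cells, 34.9% (28.8% to 41.4%; SD over sets 6.61 points), from 26.1% to 43.2% by set. Without Mef2c, 30 cells (12.9%, 8.90% to 17.9%) had at least 2.

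The 3 cells with 4 genes each carried a different combination. Cell C10 on plate 2 of L32 HSC-3 had Flt3 at 147 CPM, Notch1 at 16.5, Mef2c at 183 and Cd79b at 218 CPM. Cell C2 on plate 2 of L32 HSC-5 had Flt3, Notch1 and Vpreb1 at 55.4 CPM each and Mef2c at 303 CPM. The third was C1 of L29 HSC-3, with Notch1, Satb1 and Dntt at 16.4 CPM each, which is 2 reads, and Mef2c at 106 CPM. That cell and H2 on plate 1 of L32 HSC-3 had the most genes of all kept cells. H2 had 13734 genes from 206220 reads, and it was the one cell of series 32 with Ebf1 at 10 CPM (7 reads), together with Flt3 and with Satb1 at 228 CPM. Whether these wells held more than 1 cell was not tested.

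Each of the 36 pairs of the 9 genes lay within 3 cells of the product of their shares within sets. Pairs with Il7r (detected in 0 cells) or Dntt (in 2 cells) had no room to lie further from it. The largest gap was that of Mef2c and Ebf1, together in 4 cells against 6.99. Flt3 and Notch1 were together in 5 cells against 2.98, a ratio of 1.68. With detection at 100 CPM the ratio was 3.07, but only 5 cells had Notch1 and 20 had Flt3 at that level, so it rests on very few cells. Satb1 and Mef2c shared 10 cells against 7.85, Flt3 and Mef2c in 19 against 16.4, Notch1 and Mef2c in 19 against 16.5, Mef2c and Cd79b in 37 against 34.4, Notch1 and Cd79b in 8 against 7.41 and Flt3 and Cd79b in 6 against 6.41. Vpreb1 and Cd79b, parts of successive B cell receptors, shared 2 cells against 2.24, and Vpreb1 and Ebf1 shared 1 against 0.577. Levels across cells were compared as descriptions without a test. The partial rank correlation within sets, given the numbers of genes and counts and the plate, was 0.090 for Flt3 with Notch1 (SD over sets 0.035, positive in 5 of 5 sets with Flt3) and between -0.082 and 0.068 for the other pairs of the 4 frequent genes. Among all called genes, 95% of the correlations with Flt3 lay between -0.14 and 0.16.

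Flt3 lay further from the product of shares with Cd34 and Slamf1. These were 2 of 6 genes of the gate and of other programs set beside Flt3, chosen after the files had been opened. Cd34 encodes a sialomucin found on progenitors and absent from the surface of the most dormant mouse HSCs. Of the 27 Flt3 cells, 24 had Cd34 (88.9%, 70.8% to 97.6%), against 84 of the 183 other cells of the same 5 sets (45.9%, 38.5% to 53.4%). The product of shares gave 14.2 cells. In the Flt3 cells Cd34 ran from 0 to 1935 CPM with a median of 455 CPM, and in the other cells from 0 to 2207 CPM with a median of 0.73 CPM, so the ranges overlapped. By set, 3 of 4, 7 of 8, 6 of 7, 5 of 5 and 3 of 3 Flt3 cells had Cd34, above the set's own share in each. Of 9688 genes set beside Flt3, 0.0103%, which is Cd34 itself, had an excess as large. Genes found in nearly all cells had no room for an excess this large. The rank correlation of Flt3 with Cd34 was 0.256 (SD over sets 0.153), positive in 5 of 5 sets.

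Slamf1 encodes CD150, the marker on which the cells were sorted. It was detected in 1 of the 27 Flt3 cells (3.70%, 0.0937% to 19.0%), at 46.0 CPM, and in 39 of the 183 others (21.3%, 15.6% to 28.0%), against 4.84 cells from the product of shares. The count was 0 in 4 of the 5 sets, where the product itself was small, and 0.702% of 9688 genes had a deficit as large. The rank correlation was -0.196 (SD over sets 0.064), negative in 5 of 5 sets. At 1 CPM the ratio of the count to the product was 0.575 in place of 0.206. Vwf, which encodes von Willebrand factor and marks platelet-biased HSCs, was found in 3 Flt3 cells against 6.52 (1.06% of genes had a deficit as large). Deficits are counted in cells, so genes with a small product could not reach them. Such genes are among the 9688 behind both percentages. Cd27 (16 against 14.6 cells) and Procr, which encodes EPCR (13 against 14.0), lay near the product. Cd48, detected in 2 kept cells, was found in no Flt3 cell against 0.318 from the product, so its absence there says little. For Cd34 and Slamf1 the direction was the same under all alternatives run for them, which covered detection thresholds, cell filters, plate 2 and each set left out.

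Notch1, Mef2c and Cd79b lay nearer to the product with both genes. Cd34 was found in 18 of 28 Notch1 cells against 14.3 from the product, in 76 of 142 Mef2c cells against 71.9 and in 35 of 57 Cd79b cells against 29.0. Slamf1 was found in 6 Notch1 cells against 5.92, 31 Mef2c cells against 27.5 and 13 Cd79b cells against 11.3. The correlations with Cd34 were 0.038, 0.004 and -0.008. The correlation with Vwf was positive in 5 of 6 sets for both Cd79b (0.155) and Mef2c (0.120). Mef2c was found with Vwf in 45 cells against 38.8 and with Cd27 in 87 against 81.4. These gaps in cells, like that of Cd79b with Cd34, were wider than that of Flt3 with Slamf1. That of Cd79b with Vwf (18 against 15.5) was narrower. The difference between Flt3 and these genes was not tested.

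**Figure D5:**
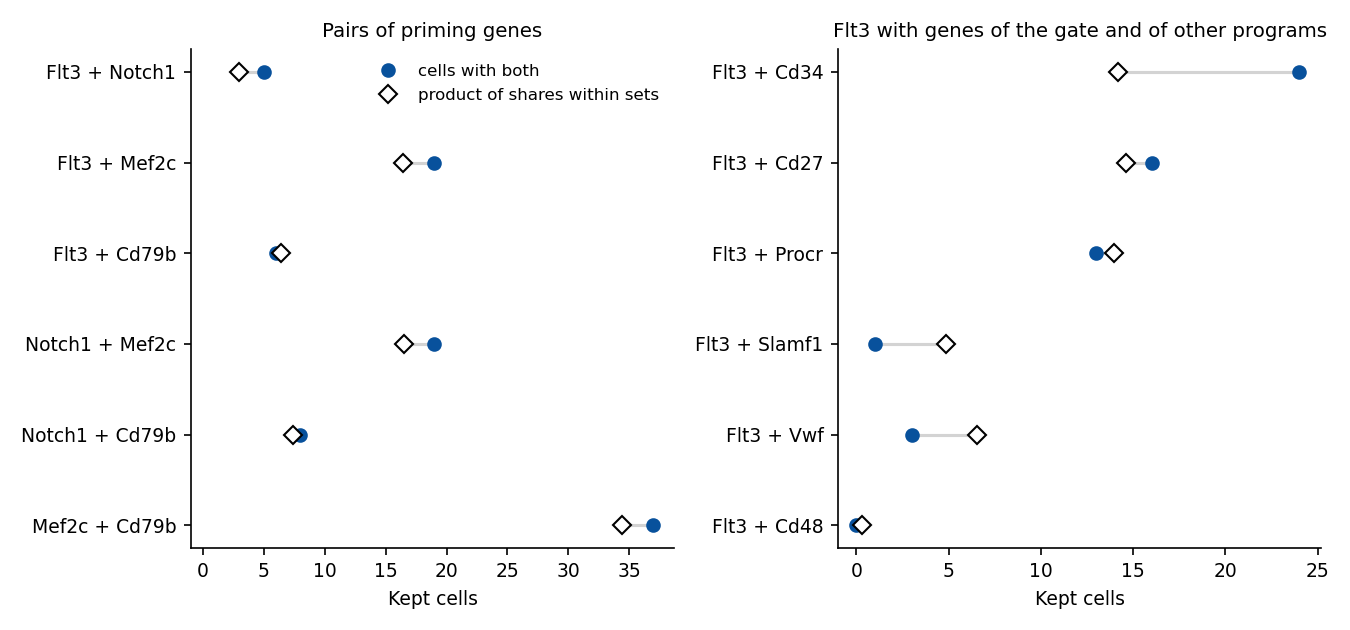
Number of kept cells with both genes of a pair at 10 CPM (blue points) and the number that the product of their shares within sets gives (open diamonds), for pairs of Flt3, Notch1, Mef2c and Cd79b (left) and for Flt3 with 6 other genes (right). The pairs on the left lie within 3 cells of the product, while Flt3 with Cd34 lies at 24 against 14.2 and Flt3 with Slamf1 at 1 against 4.84.

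Against whole programs the relations were weak. With a score of the 25 HSC identity genes, the rank correlation was -0.099 for Flt3 (positive in 2 of 5 sets), 0.073 for Notch1, -0.015 for Mef2c and 0.037 for Cd79b. With a score of the 16 progenitor list genes outside the 9, it was 0.146 for Flt3 (positive in 4 of 5 sets), 0.042 for Notch1, 0.047 for Mef2c and 0.051 for Cd79b. That progenitor score contains Cd34. Each of these 8 values lay inside the middle 95% of all 9689 called genes for its score, which ran from -0.16 to 0.16 and from -0.14 to 0.15.

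The genes whose levels went most closely with each frequent gene across kept cells were Slmap (0.299), Usp21 (0.293) and Aaas (0.281) for Flt3, positive in the 5 sets that held Flt3. For Notch1 they were Ncoa1 (0.337), Clip1 (0.274) and Tomm40 (0.270), for Mef2c Calm2 (0.281), Vps13d (0.242) and Nt5c2 (0.236), and for Cd79b Cdcp1 (0.283), Cbx6 (0.251) and Gsr (0.241), each positive in 6 of 6 sets. None of these is on a lymphoid list. They are the extremes of 9688 genes per member, and weak correlations in sparse counts are a description only.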

How the data were processed

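Poly(A) RNA of single sorted cells was copied by template switching, amplified with 22 PCR cycles and tagmented from 700 pg of cDNA, per the labels' protocols. No molecular identifiers were used, so PCR copies are counted as reads. The authors deposited 1 table of raw counts per gene and cell, in which the labels match each column to 1 sample. GSNAP (2018-07-04) and featureCounts (1.6.2) with build mm10 are named per the submitters' processing notes, and the table's name gives Ensembl 87. None of the sources used here says how the strand and multi-mapped reads were handled. The 92 spike-in rows (11.7% of counts) and the transgene row stayed out of totals.

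CPM and log2(CPM/10 + 1), with a pseudocount of 1, were computed here from the deposited counts with Python (3.11.15), numpy (2.4.6), pandas (2.3.3) and scipy (1.17.1). edgeR (4.0.16, in R 4.3.3) gave TMMwsp scaling for 1 alternative, and no model was fitted, since there is 1 group. No doublet caller was run on these single sorted cells. No 2 cells had identical counts. For the correlations, Spearman residuals within each set were averaged as Fisher z with weights by cells. The simulated counts on which this was tried followed a known score, so they do not cover pairs of sparse genes.

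The 9 genes and the 21 gene lists (210 symbols, all found) were chosen with earlier results of these data known. Named besides the 9 were, per list, at most 6 genes with the highest mean CPM among those in at least 10% of cells, for other cell types the 3 highest, and the 3 most correlated genes per frequent gene. Further genes are named as chosen after their values were seen, among them Cd34, Slamf1, Vwf, Cd27, Procr, Cd48, Top3b and the relatives and list members under 10% of cells. Tried alternatives were other detection thresholds, thinning, scaling (TMMwsp, spike-ins, no mitochondrial genes), cell filters and leaving out plate 2 of series 32 or each set. A few listed genes are not reported here.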

Additional observations from a re-analysis of the deposited data

Results flagged for a closer look

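Of 18 checks of the 9 genes over the 6 sets (share of cells and mean CPM), 3 found a set far from the others. The rule is set so that chance flags about 1 in 20 checks of normally spread values. That rate was not measured here. It does not hold for the share of Dntt, where any 1 set that alone has detected cells is flagged. The share and the mean of 1 gene are not independent checks. Ebf1 was at 10 CPM in 23.3% of the 43 kept cells of L29 HSC-4, and the next set had 2.27%. Dntt was at 10 CPM in 4.35% of L29 HSC-3, which is 2 cells, and in 0% of the other 5 sets. The mean level of Vpreb1 was 10.7 CPM in L29 HSC-4 and 2.34 CPM in the next set, and 1 cell of L29 HSC-4 held 58 of its 80 reads there. The causes were not tested.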

How the results depend on the processing

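The share of kept cells with at least 2 of the 9 genes was 59.9% with detection at 1 CPM, 15.5% at 100 CPM and 47.4% at 1 read after thinning to 100000 reads, against 34.9% at 10 CPM. It ran from 33.0% to 37.1% when each set was left out, and it was 30.4% without plate 2 of series 32. The number of the 9 genes in at least 10% of cells was 6 at 1 CPM and after thinning, 3 at 5 reads, 2 at 100 CPM (Mef2c and Cd79b) and 3 to 4 without each set, 3 without L32 HSC-5, where Notch1 was at 9.84%. At 1 CPM, Ebf1 was at 28.0%, Satb1 at 22.0% and Notch1 at 20.7%. Without L29 HSC-3, Dntt was in 0% of cells. Of the recomputed values, 449 moved by less than the SD over sets (the count of genes by no more than from 4 to 6) and 28 by more. Under the alternatives chosen after seeing the data these numbers were 30 and 3. Many of these values leave out 1 of the 6 sets, which by itself can hardly move a value by that SD. The numbers are therefore no measure of robustness. Over all 50 wells under the filter, Mef2c had 633, Cd79b 207 and Flt3 3.85 CPM. A filter of 3 median absolute deviations kept 194 cells, one of 200000 counts 200. No paired analysis was possible because there is 1 group. Depth limits the sparse genes: in the median kept cell 10 CPM is 2.80 reads, so Ebf1, Dntt and Il7r shares rest on 1 to 7 reads per cell.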
